A study of Mus musculus with 6 samples.

Results

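The genes that write, maintain and erase DNA methylation were followed in the male gonads of E14.5 mouse embryos. The set was fixed by name and not by its values, though with earlier results of these data known. It holds the methyltransferases *Dnmt1*, *Dnmt3a* and *Dnmt3b*, the cofactor *Dnmt3l*, the maintenance factor *Uhrf1* and the dioxygenases *Tet1* and *Tet2*. Of these 7 genes, 6 were matched to a probe of the array, through 10 probes, out of 16535 genes matched in all. *Tet1* had no matched probe and is not analysed here.

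Total RNA of whole gonads had been labelled with 1 dye for Agilent arrays covering the mouse genome (4x44K format), 2 arrays for each of 3 genotypes. The first genotype was Nanos2+/-, heterozygous for the knockout allele, which served as the control. The second was Nanos2-/-, without functional *Nanos2*. The third was Nanos2-/-_Tg, the same knockout with a transgene for 3×FLAG-tagged Nanos2-ΔN10, a NANOS2 protein that lacks its first 10 residues. All 6 samples were male, of age E14.5 and of a mixed ICR and N2 background, and all carried at least 1 knockout allele, so that no wild-type gonad was measured. The transgene was driven by the upstream enhancer of *Nanos2*, which acts in germ cells, whereas the RNA came from the whole gonad with its Sertoli, interstitial and blood cells. The sources used here do not give the number of gonads behind an array. The design text calls the arrays biological duplicates, and the comparisons ask how far the truncated protein replaces NANOS2, an RNA-binding protein that directs male germ cells away from meiosis.

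Values are given as the log2 of the scaled signal, that is, the processed signal of a spot after every array had been brought to the same median. A difference of 1 on this scale is 2-fold. The test was limma, fitted to the 6 arrays together. A probe counted as called when it differed 2-fold or more and its Benjamini-Hochberg adjusted *p*, taken over all 26711 probes tested, was below 0.05. The *Nanos2* probe gave 9.42 and 10.78 in Nanos2+/-, was dim (not well above background) on both Nanos2-/- arrays, and gave 13.28 and 14.25 in Nanos2-/-_Tg. Nanos2-/- was thus lower than Nanos2+/- at least 89.7-fold, and Nanos2-/-_Tg was higher than Nanos2-/- at least 1139-fold, each against the lowest signal well above background. Both Nanos2+/- arrays lay on 1 slide with 1 scan and the other 4 arrays on another slide, so slide and genotype cannot be told apart wherever Nanos2+/- is compared. The comparison of Nanos2-/-_Tg with Nanos2-/- lay within 1 slide. The median difference between replicates was 0.332 in Nanos2+/-, against 0.198 in Nanos2-/- and 0.183 in Nanos2-/-_Tg, and 64.1 to 66.7% of the probes of an array were well above background.

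DNA methylation is the addition of a methyl group to cytosine, in mammals mostly where a C is followed by a G. DNMT3A and DNMT3B place new methyl groups, and DNMT3L, which has no catalytic activity of its own, stimulates them. DNMT1 copies the pattern onto newly made strands after replication, recruited by UHRF1, which recognizes half-methylated sites. The TET proteins oxidize methylated cytosine and so start its removal. Primordial germ cells lose most of their methylation, and male germ cells of the fetal testis acquire a new, sperm-type pattern in the days before birth, for which *Dnmt3a* and *Dnmt3l* are required. NANOS2 had been tied to the male pathway in the same cells.

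The sequences before the transcription starts of the de novo genes are shown because these genes gave the largest differences below, and because the genes differ in how many CG pairs, the target of the enzymes themselves, lie before their starts. Each sequence holds the 250 bases before a start in RefSeq annotation of build GRCm38.p6, read 5′ to 3′ on the gene's strand, with each CG in capitals. CG reads the same on both strands.
Dnmt3l upstream chr10:78042037-78042286 (+): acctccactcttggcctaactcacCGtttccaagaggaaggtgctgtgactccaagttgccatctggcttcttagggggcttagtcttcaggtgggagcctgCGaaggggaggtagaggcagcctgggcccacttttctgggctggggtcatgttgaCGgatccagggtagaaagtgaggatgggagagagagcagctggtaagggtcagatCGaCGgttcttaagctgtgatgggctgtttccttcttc
Dnmt3l middle chr10:78049592-78049841 (+): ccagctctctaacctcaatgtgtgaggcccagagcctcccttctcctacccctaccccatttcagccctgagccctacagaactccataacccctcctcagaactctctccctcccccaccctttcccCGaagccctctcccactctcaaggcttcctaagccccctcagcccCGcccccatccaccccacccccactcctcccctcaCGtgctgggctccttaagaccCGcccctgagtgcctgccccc
Dnmt3l downstream chr10:78055085-78055334 (+): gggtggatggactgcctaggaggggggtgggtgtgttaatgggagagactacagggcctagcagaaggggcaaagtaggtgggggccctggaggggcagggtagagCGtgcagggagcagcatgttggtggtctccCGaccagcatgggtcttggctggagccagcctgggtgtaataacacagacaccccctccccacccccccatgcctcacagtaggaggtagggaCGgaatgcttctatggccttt
Dnmt3a first chr12:3806730-3806979 (+): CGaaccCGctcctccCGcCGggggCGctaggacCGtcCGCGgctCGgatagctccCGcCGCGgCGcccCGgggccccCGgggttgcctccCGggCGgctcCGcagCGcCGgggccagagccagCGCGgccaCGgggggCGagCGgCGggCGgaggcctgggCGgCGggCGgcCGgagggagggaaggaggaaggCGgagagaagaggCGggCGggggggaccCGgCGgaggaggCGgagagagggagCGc
Dnmt3a internal chr12:3891494-3891743 (+): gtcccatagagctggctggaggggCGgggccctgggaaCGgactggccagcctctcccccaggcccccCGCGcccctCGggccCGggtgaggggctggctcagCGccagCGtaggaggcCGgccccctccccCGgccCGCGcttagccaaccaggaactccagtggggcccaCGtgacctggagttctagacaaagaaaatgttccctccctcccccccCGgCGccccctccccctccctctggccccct
Dnmt3b chr2:153649199-153649448 (+): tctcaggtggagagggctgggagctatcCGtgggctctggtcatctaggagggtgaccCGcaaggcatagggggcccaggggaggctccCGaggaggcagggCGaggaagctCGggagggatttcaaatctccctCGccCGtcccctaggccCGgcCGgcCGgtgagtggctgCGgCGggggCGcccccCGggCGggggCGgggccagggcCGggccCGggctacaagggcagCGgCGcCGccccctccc

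The 3 *Dnmt3l* starts were poor in CG, with 5, 4 and 3 pairs. Among all 32851 such windows, which had a median of 6 CG, 55.6%, 62.2% and 71% held at least as many. The 2 *Dnmt3a* starts differed from each other. The one labelled first is the most upstream *Dnmt3a* window but lies 5421 bases into the gene as annotated. It held 38 CG, a count reached by 1.88% of windows. The one labelled internal, farther in at 90185 bases, held 15, reached by 27.3%. The *Dnmt3b* window held 21 CG, reached by 16.3%. A further *Dnmt3a* start overlaps the first and held 40 CG. Of the other genes, *Tet2* had 51 CG before its start, a count reached by 0.067% of windows, *Uhrf1* had 10 and 30 before its 2 starts, *Dnmt1* had 26, 7 and 2 before its 3 starts, and *Tet1* had 15. The source of the windows does not pair them with transcripts, and the position of the array's probes within the genes is not known here. These counts describe the sequence only and say nothing of its methylation in the gonad, which was not measured.

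Of the 10 probes, none was called in any of the 3 comparisons. The background of called probes was 0.0674% for Nanos2-/- against Nanos2+/-, 0.105% for Nanos2-/-_Tg against Nanos2+/- and 0.0187% for Nanos2-/-_Tg against Nanos2-/-. *Dnmt3l* was lower and *Dnmt3b* higher on each Nanos2-/- and each Nanos2-/-_Tg array than on both Nanos2+/- arrays. Such a lack of overlap was common, at 35.9% of all genes for Nanos2-/- and 38.3% for Nanos2-/-_Tg against Nanos2+/-. The maintenance pair *Dnmt1* and *Uhrf1* overlapped between all genotypes, and so did the more brightly detected probe of *Tet2*. *Dnmt3a* depended on the probe.

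**Figure D1:**
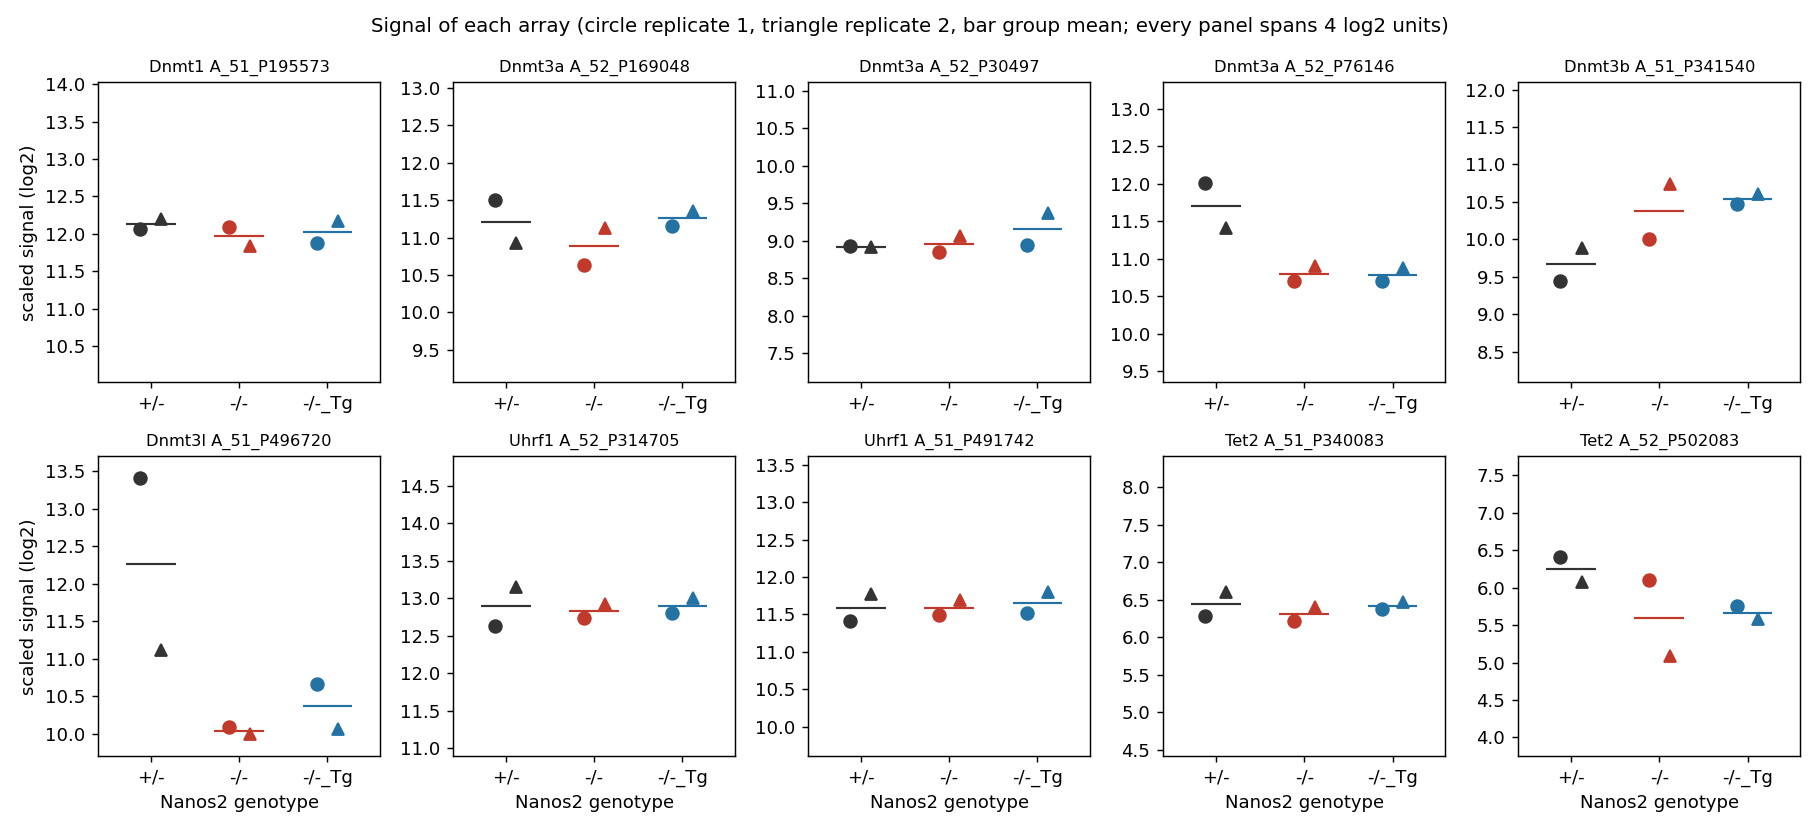
Log2 scaled signal (vertical axes, each spanning 4 log2 units) of the 10 probes by genotype (horizontal axes), with circles for replicate 1, triangles for replicate 2 and bars for the mean of 2 arrays. The 2 *Dnmt3l* values of Nanos2+/- lie 2.29 apart and both above the other 4 arrays, whereas *Dnmt1*, *Uhrf1* and *Tet2* probe A_51_P340083 overlap between genotypes.

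*Dnmt3l* encodes the cofactor of the de novo enzymes. In Nanos2+/- its signal on the log2 scale was 13.40 in replicate 1 and 11.12 in replicate 2. In Nanos2-/- it was 10.09 and 9.99, and in Nanos2-/-_Tg 10.66 and 10.06. Both control arrays were thus the highest of the 6, but replicate 1 stood far above replicate 2, and the groups without intact *Nanos2* overlapped with each other. In scaled signal before the log these levels were 10842 and 2218, then 1090 and 1017, then 1623 and 1068.

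The group means of *Dnmt3l* were 12.26 ± 1.62 (SD, n = 2) in Nanos2+/-, 10.04 ± 0.070 in Nanos2-/- and 10.36 ± 0.43 in Nanos2-/-_Tg. The difference of Nanos2-/- from Nanos2+/- was -2.22 (SE 0.634, 95% interval -3.70 to -0.74), a 4.66-fold lower signal, with an unadjusted limma *p* of 0.00884 and an adjusted *p* of 0.344. That of Nanos2-/-_Tg from Nanos2+/- was -1.90 (95% interval -3.37 to -0.42), 3.72-fold lower, with an adjusted limma *p* of 0.303. The difference between Nanos2-/-_Tg and Nanos2-/- was 0.32 (95% interval -1.15 to 1.80), with an adjusted limma *p* of 1. The interval holds changes past 2-fold in both directions, so a change of *Dnmt3l* with the transgene of that size was not detectable with 2 arrays a group.

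By the size of the difference, *Dnmt3l* stood at percentile 99.8 of all 12982 genes tested for Nanos2-/- against Nanos2+/-, at 99.4 for Nanos2-/-_Tg against Nanos2+/- and at 89.7 for Nanos2-/-_Tg against Nanos2-/-. The first 2 of these rest on the same control arrays. Without replicate 1 of Nanos2+/- the differences from the control were -1.08 and -0.75, and without replicate 2 they were -3.36 and -3.04. Each of these fits leaves 1 control array, which adds nothing to the estimated spread, so only the sizes are given. Between arrays of the same replicate number, Nanos2-/- minus Nanos2+/- was -3.31 in replicate 1 and -1.12 in replicate 2. For Nanos2-/-_Tg these values were -2.74 and -1.05. The direction held in each pair and with each array left out, but the size was set mainly by 1 control array. With normexp background correction, which raised the median of all probes against Nanos2+/- by 0.60 and 0.54, the differences were -1.18 and -0.91.

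**Figure D2:**
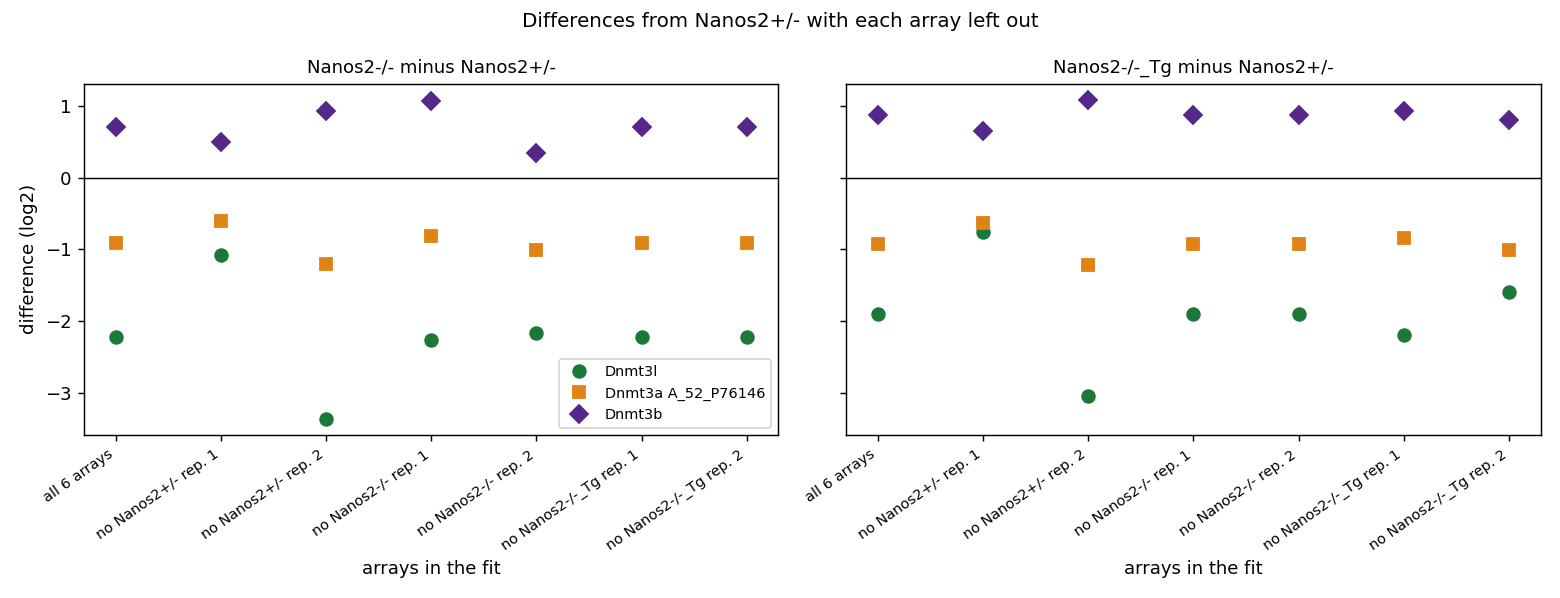
Difference from Nanos2+/- in log2 units (vertical axis) with all 6 arrays and with each array left out (horizontal axis), for Nanos2-/- on the left and Nanos2-/-_Tg on the right. *Dnmt3l* (circles) moved from -2.22 to -1.08 and from -1.90 to -0.75 without replicate 1 of Nanos2+/-. The probe A_52_P76146 of *Dnmt3a* (squares) stayed below 0 and *Dnmt3b* (diamonds) above 0, which was fixed by the lack of overlap with Nanos2+/-.

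*Dnmt3l* is known from germ cells of this stage, and germ cell markers were therefore read beside it. All 7 germ cell markers were tested, and their summed signal on the log2 scale was 16.36 and 16.48 in Nanos2+/-, 15.96 and 16.25 in Nanos2-/-, and 16.27 and 16.34 in Nanos2-/-_Tg. No marker was called. The median change over the 7 was -0.13 in Nanos2-/- and 0.045 in Nanos2-/-_Tg against Nanos2+/-, beside -0.071 and -0.022 over all genes. These medians depended on single arrays: in Nanos2-/- the value was -0.55 without Nanos2-/- replicate 2, -0.33 without Nanos2+/- replicate 1, -0.077 without Nanos2+/- replicate 2 and -0.010 without Nanos2-/- replicate 1. In Nanos2-/-_Tg it changed sign, from -0.021 without Nanos2+/- replicate 1 or without Nanos2-/-_Tg replicate 2 to 0.11 without Nanos2-/-_Tg replicate 1. *Dnd1* and *Dppa4* were lower at an unadjusted limma *p* below 0.05 in both comparisons with Nanos2+/-. *Dnd1* was lower by 0.81 and 0.82 on the log2 scale and *Dppa4* by 0.61 and 0.55. Other markers went the other way, with *Dazl* at 0.34 and 0.45. Against Nanos2+/-, 2 of the 7 were higher and 5 lower in Nanos2-/-, and 4 higher and 3 lower in Nanos2-/-_Tg. *Pou5f1*, a pluripotency factor of early germ cells, followed the replicate number and not the genotype, with 10.62, 10.53 and 10.78 in replicate 1 and 12.43, 12.39 and 12.61 in replicate 2. The array with the highest *Dnmt3l* is thus one of 3 with low *Pou5f1*, and the other 2 had *Dnmt3l* at 10.09 and 10.66. The part of germ cell number or of embryo stage in these values was not tested, and in whole gonads fewer cells of a type and less RNA per cell cannot be told apart.

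*Dnmt3a* encodes the enzyme that acts with DNMT3L, and the array carries 3 probes for it. The probe A_52_P76146 was designed on the RefSeq transcript NM_153743, the entry for the shorter form of the enzyme known as DNMT3A2, which starts inside the gene and predominates in germ cells. On the log2 scale it gave 12.01 and 11.41 in Nanos2+/-, 10.71 and 10.90 in Nanos2-/-, and 10.70 and 10.87 in Nanos2-/-_Tg. Both Nanos2+/- arrays were above the other 4, and the other genotypes overlapped.

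The differences of this probe from Nanos2+/- were -0.91 (95% interval -1.47 to -0.35) in Nanos2-/- and -0.92 (95% interval -1.48 to -0.36) in Nanos2-/-_Tg, with a standard error of 0.241. The adjusted limma *p*-values were 0.305 and 0.202. Against Nanos2-/-, Nanos2-/-_Tg differed by -0.016 (95% interval -0.58 to 0.54). Between arrays of the same number Nanos2-/- differed from Nanos2+/- by -1.30 and -0.51, and Nanos2-/-_Tg by -1.30 and -0.54, so that again replicate 1 of the control was the farther one. Without that array they were -0.61 and -0.63, and with normexp correction 0.092 and 0.076. The probe then still lay below the median of all probes, which was at 0.56 and 0.52 with that correction.

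The other bright *Dnmt3a* probe, A_52_P169048, designed on NM_007872, did not follow. It gave 11.50 and 10.92 in Nanos2+/-, 10.64 and 11.13 in Nanos2-/-, and 11.16 and 11.35 in Nanos2-/-_Tg. Its groups overlapped in both comparisons with Nanos2+/-, whereas both Nanos2-/-_Tg arrays were above both Nanos2-/- arrays. The differences were -0.33 and 0.044 from Nanos2+/- and 0.37 between Nanos2-/-_Tg and Nanos2-/-, each with a standard error of 0.265 and none below an unadjusted limma *p* of 0.05. The dimmer probe on the same transcript, A_52_P30497, gave 8.93 and 8.92, then 8.85 and 9.07, then 8.94 and 9.37, with differences of 0.038, 0.23 and 0.20.

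Because both bright probes were read on each array, their difference within an array is free of the scaling between arrays. The probe A_52_P169048 minus A_52_P76146 was -0.51 and -0.49 in Nanos2+/-, -0.067 and 0.22 in Nanos2-/-, and 0.46 and 0.48 in Nanos2-/-_Tg. The values of the 3 genotypes did not overlap. How often probe pairs of other genes separate in this way is not given here, and Nanos2+/- lay on a slide of its own. The sign of such a difference has no meaning, as probes differ in brightness, and only its shift between arrays is described. The probe A_52_P76146 minus A_52_P30497 likewise went from 3.08 and 2.49 in Nanos2+/- to 1.85 and 1.83 in Nanos2-/- and 1.76 and 1.50 in Nanos2-/-_Tg. The third pair, A_52_P169048 minus A_52_P30497, overlapped, with values between 1.79 and 2.57. The within-array differences were examined after the values of the probes had been seen, so they carry no test, and they show unequal change of the probes, not which transcript changed.

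**Figure D3:**
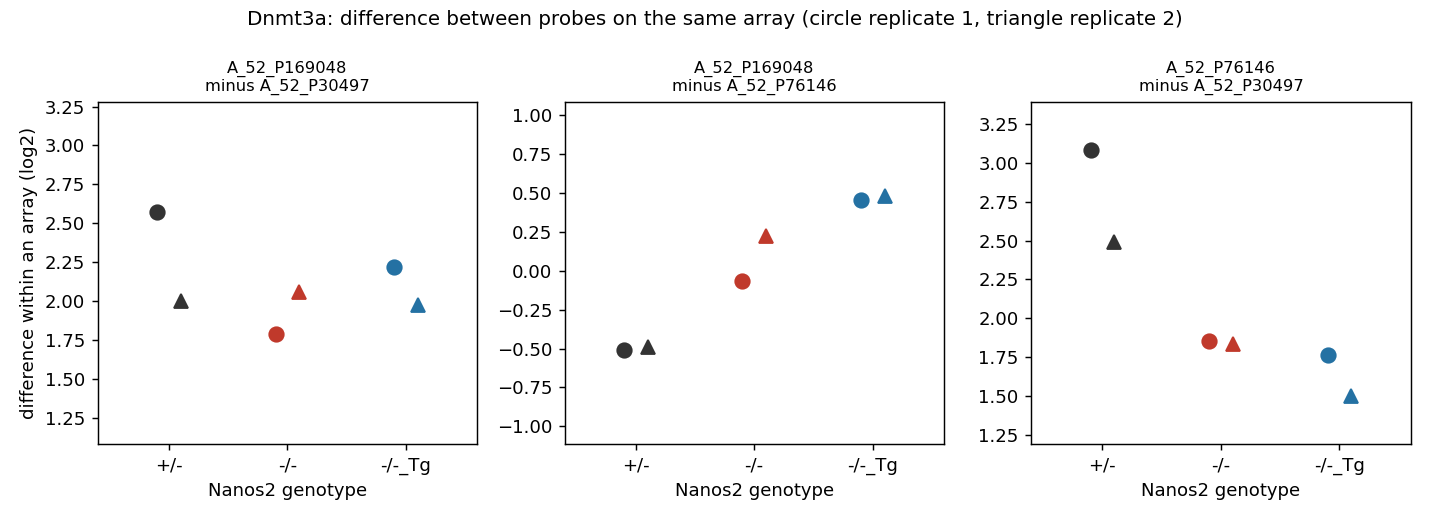
Difference between 2 *Dnmt3a* probes on the same array in log2 units (vertical axes, each spanning 2.2 units) by genotype, with circles for replicate 1 and triangles for replicate 2. The pairs that include A_52_P76146 separate Nanos2+/- from the other genotypes, from -0.51 and -0.49 up to 0.48 in the middle panel, whereas the pair of probes on NM_007872 overlaps.

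*Dnmt3b* encodes the other de novo methyltransferase. On the log2 scale it gave 9.45 and 9.89 in Nanos2+/-, 10.01 and 10.74 in Nanos2-/-, and 10.48 and 10.60 in Nanos2-/-_Tg. It was thus higher on the 4 arrays without intact *Nanos2*, though replicate 1 of Nanos2-/- lay only just above the control. The difference from Nanos2+/- was 0.71 (SE 0.282, 95% interval 0.055 to 1.37) in Nanos2-/- with an adjusted limma *p* of 0.508. In Nanos2-/-_Tg it was 0.87 (95% interval 0.22 to 1.53) with an adjusted limma *p* of 0.288. Both were under 2-fold, at 1.64-fold and 1.83-fold, though with normexp correction the differences were 1.40 and 1.54 on the log2 scale, past 2-fold. With that correction, however, the median of all probes was itself at 0.56 and 0.52 against Nanos2+/-. Without replicate 2 of Nanos2-/- the first was 0.34, and without replicate 1 of Nanos2-/- it was 1.08. Nanos2-/-_Tg exceeded Nanos2-/- by 0.16 (95% interval -0.50 to 0.82).

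Among the 3 de novo genes, the probes of *Dnmt3l* and of the *Dnmt3a* entry NM_153743 were therefore lower and that of *Dnmt3b* higher in both genotypes than in Nanos2+/-, in each case short of the adjusted threshold. Both comparisons share the control arrays, so the second does not repeat the first independently.

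**Figure D4:**
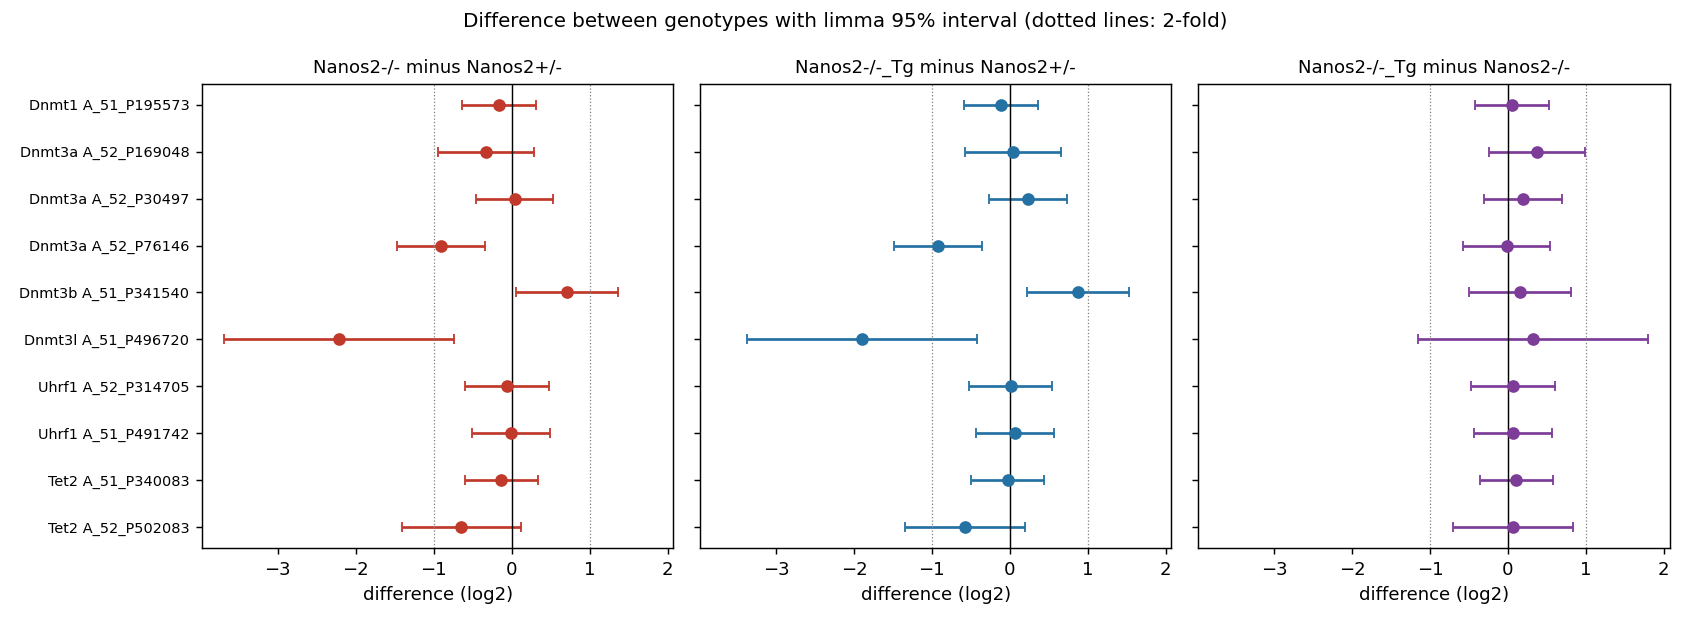
Difference between genotypes in log2 units (horizontal axes) for the 10 probes (rows), with limma's 95% interval as bars and 2-fold as dotted lines. In both comparisons with Nanos2+/- the intervals of *Dnmt3l*, of *Dnmt3b* and of the *Dnmt3a* probe A_52_P76146 leave out 0, and in Nanos2-/-_Tg against Nanos2-/- every interval covers 0.

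*Dnmt1*, the maintenance methyltransferase, gave 12.07 and 12.20 in Nanos2+/-, 12.10 and 11.84 in Nanos2-/-, and 11.87 and 12.18 in Nanos2-/-_Tg. All 3 groups overlapped. The difference from Nanos2+/- was -0.17 (95% interval -0.64 to 0.31) in Nanos2-/- and -0.11 (95% interval -0.58 to 0.36) in Nanos2-/-_Tg. These intervals leave out a 2-fold change in either direction, but not smaller ones.

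*Uhrf1*, which brings DNMT1 to newly replicated DNA, had 2 probes. The brighter, A_52_P314705, gave 12.63 and 13.16 in Nanos2+/-, 12.74 and 12.93 in Nanos2-/-, and 12.80 and 13.01 in Nanos2-/-_Tg. The Nanos2+/- arrays enclosed the other 4. Its differences were -0.061 (95% interval -0.60 to 0.48), 0.011 (95% interval -0.53 to 0.55) and 0.071 (95% interval -0.47 to 0.61) in the order Nanos2-/- from Nanos2+/-, Nanos2-/-_Tg from Nanos2+/- and Nanos2-/-_Tg from Nanos2-/-. The other probe, A_51_P491742, lay between 11.42 and 11.80 on all arrays, with differences of -0.0031, 0.066 and 0.069 in that order. On the same array the *Uhrf1* probes differed by 1.21 to 1.39, so they followed each other closely. On both probes replicate 2 was above replicate 1 in each genotype, by 0.18 to 0.52.

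*Uhrf1* and *Dnmt1* are known to be high in dividing cells, and markers of cycling cells were therefore read beside them. Of 11 markers, 10 were tested, none passed an unadjusted limma *p* of 0.05 in any comparison, and their median changes were -0.020, 0.12 and 0.12 in the order given above. Their summed log2 signal was 16.98 and 17.38 in Nanos2+/-, 17.01 and 17.15 in Nanos2-/-, and 17.13 and 17.27 in Nanos2-/-_Tg, with replicate 2 the higher in each genotype as for *Uhrf1*. With an array left out, the medians against Nanos2+/- ran from -0.14 without its replicate 1 to 0.14 without its replicate 2 in Nanos2-/-, and from -0.11 to 0.24 likewise in Nanos2-/-_Tg.

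The erasers were read through *Tet2*, whose 2 probes were well above background on all 6 arrays. The probe A_51_P340083 gave 6.28 and 6.61 in Nanos2+/-, 6.22 and 6.41 in Nanos2-/-, and 6.38 and 6.47 in Nanos2-/-_Tg, with differences of -0.13, -0.026 and 0.11 and a standard error of 0.200. The other probe, A_52_P502083, gave 6.41 and 6.07 in Nanos2+/-, 6.11 and 5.09 in Nanos2-/-, and 5.75 and 5.58 in Nanos2-/-_Tg. It was lower on both Nanos2-/-_Tg arrays than on both control arrays, while Nanos2-/- overlapped with the control. Its differences from Nanos2+/- were -0.64 (95% interval -1.41 to 0.12) and -0.58 (95% interval -1.34 to 0.19), with adjusted limma *p*-values of 0.627 and 0.568. Both probes were designed on the same transcript and differed within an array by -0.13 to 1.32, which is wider than for *Uhrf1*.

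Read gene by gene, with the brightest probe standing for each of the 6, 1 gene was higher (*Dnmt3b*) and 1 lower (*Dnmt3l*) by limma's *p* before adjustment, below 0.05, both times that Nanos2+/- was the control, that is, 2 of 6 beside 8.5% and 10.2% of all genes. In Nanos2-/-_Tg against Nanos2-/- there was none, beside 1.73%. The paper had already reported *Dnmt3l* as lower in these data. It also reported less DNMT3L protein in both genotypes, by immunostaining of testis sections at a later embryonic day. The members were chosen with earlier results known. The 2 of 6 are therefore no independent evidence about the set. The arrays of 2 groups did not overlap for 2, 2 and 1 of the 6 genes, which is close to the 35.9%, 38.3% and 31% of all genes and is therefore no result about these genes. The median change of the 6 was -0.15 in Nanos2-/- and -0.0075 in Nanos2-/-_Tg against Nanos2+/-, and 0.13 in Nanos2-/-_Tg against Nanos2-/-, where all 6 were higher. The medians of all genes were -0.071, -0.022 and 0.048. In that last comparison genes were more often higher in general: of all genes without overlap, 2988 were higher and 1040 lower. The *Dnmt3a* probe A_52_P76146 does not stand for its gene in this count but was nearly as bright. Its group means were 11.71, 10.80 and 10.79, beside 11.21, 10.88 and 11.26 for A_52_P169048. It was lower than Nanos2+/- without overlap both times, at unadjusted limma *p*-values of 0.0061 and 0.0056, and at -0.016 against Nanos2-/-. With it in place of A_52_P169048, the counts against Nanos2+/- would be larger, and not all 6 would be higher in the last comparison. With an array left out the medians of the 6 lay between -0.27 (without Nanos2+/- replicate 1) and -0.036 (without its replicate 2), between -0.18 (without Nanos2+/- replicate 1) and 0.077 (without Nanos2-/-_Tg replicate 1), and between 0.071 and 0.24 (without Nanos2-/- replicates 1 and 2). With 2 arrays a group, the smallest two-sided *p* of an exact permutation test is 0.333.

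The partners of the writers were described from a list of 11 genes, which holds the methyl donor enzymes, chromatin remodellers and histone modifiers that act with them. Of these 10 were tested, none was called and none reached an unadjusted limma *p* of 0.05. Their median changes were 0.040, 0.17 and 0.10 in the order Nanos2-/- and Nanos2-/-_Tg from Nanos2+/- and Nanos2-/-_Tg from Nanos2-/-. *Kdm1b*, a histone demethylase needed for methylation of maternal imprints, gave the lowest values against Nanos2+/-, at -0.48 and -0.37, with 12.09 and 11.57 in Nanos2+/-, 11.04 and 11.65 in Nanos2-/-, and 11.33 and 11.57 in Nanos2-/-_Tg. *Hells*, a remodeller that aids methylation of repeats, gave the highest, at 0.32 and 0.42. Within the slide shared by Nanos2-/- and Nanos2-/-_Tg, the extremes were *Nsd1* at 0.30 and *Mat2a* at -0.037.

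Among genes of active demethylation and base excision repair, 16 of 18 were tested and none was called, with median changes of 0.055, 0.026 and -0.0056. *Tet3* had no matched probe. *Ogt*, the glycosyltransferase that binds the TET proteins, was the only one of the 16 at an unadjusted limma *p* below 0.05. It gave 10.45 and 10.48 in Nanos2+/-, 10.89 and 10.98 in Nanos2-/-, and 10.95 and 10.96 in Nanos2-/-_Tg. The groups stood apart from Nanos2+/- with a narrow spread, by 0.47 and 0.49, but with adjusted limma *p*-values of 0.476 and 0.336. *Xrcc1*, a scaffold of base excision repair, gave the lowest values, -0.39 and -0.40. *Tdg*, which excises oxidized methylcytosine, was at 0.35 and 0.30. Between Nanos2-/-_Tg and Nanos2-/- the extremes were *Gadd45a* at 0.16 and *Lig3* at -0.21.

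Of 16 readers of methylation and protectors of imprints, 13 were tested and none was called, with median changes of -0.069, -0.064 and -0.010. *Zbtb38*, a zinc finger protein that binds methylated DNA, was lower at an unadjusted limma *p* below 0.05 in both comparisons with Nanos2+/-. It was well above background on both Nanos2+/- arrays, on 1 of the 2 Nanos2-/- arrays and on neither Nanos2-/-_Tg array. The signals were 5.01 and 4.87 in Nanos2+/-, 4.28 and 3.97 in Nanos2-/-, and 4.25 and 3.76 in Nanos2-/-_Tg. Nanos2-/- differed by -0.81 with an adjusted limma *p* of 0.344. Nanos2-/-_Tg was lower with an adjusted limma *p* of 0.191, and no size is given because both of its arrays were dim. The probe passed the filter on dim probes only through Nanos2+/-, where it was high, so its lower values elsewhere are partly built in. *Dppa3*, which protects methylation in the early embryo and marks germ cells, was at 0.24 and 0.23, and *Zbtb33* at 0.34 in Nanos2-/-_Tg. *Morc1*, which silences transposons in male germ cells, gave 12.93 and 12.45 in Nanos2+/-, 12.13 and 12.35 in Nanos2-/-, and 12.43 and 12.59 in Nanos2-/-_Tg. It had the highest value of the list between Nanos2-/-_Tg and Nanos2-/-, 0.27, and *Zfp57* the lowest, -0.14.

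Germline genes whose promoters are kept methylated in somatic cells were the last list, with 13 of 15 tested and none called. Their median changes were -0.13, 0.045 and 0.28, and 4 of them also belong to the germ cell markers. *Sycp1*, a protein of the synaptonemal complex, gave 9.66 and 10.33 in Nanos2+/-, 11.01 and 11.24 in Nanos2-/-, and 11.17 and 10.98 in Nanos2-/-_Tg. *Taf7l*, a germ cell transcription factor subunit, gave 11.04 and 11.72, then 12.35 and 12.58, then 13.16 and 12.37. Both were higher than Nanos2+/- without overlap, *Sycp1* by 1.13 and 1.08 and *Taf7l* by 1.08 and 1.38, with adjusted limma *p*-values between 0.179 and 0.363. *Brdt*, a testis bromodomain protein, was lower in Nanos2-/- by 0.68 at an unadjusted limma *p* of 0.0192. *Tex19.1* had the lowest value in Nanos2-/-_Tg, -0.58. In Nanos2-/-_Tg against Nanos2-/-, 11 of the 13 were higher and none reached an unadjusted limma *p* of 0.05. The extremes were *Sycp3* at 0.47 and *Tex19.1* at -0.23. Genes were more often higher in general in this comparison. The median of all genes was 0.048, and of all genes without overlap 2988 were higher and 1040 lower.

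**Figure D5:**
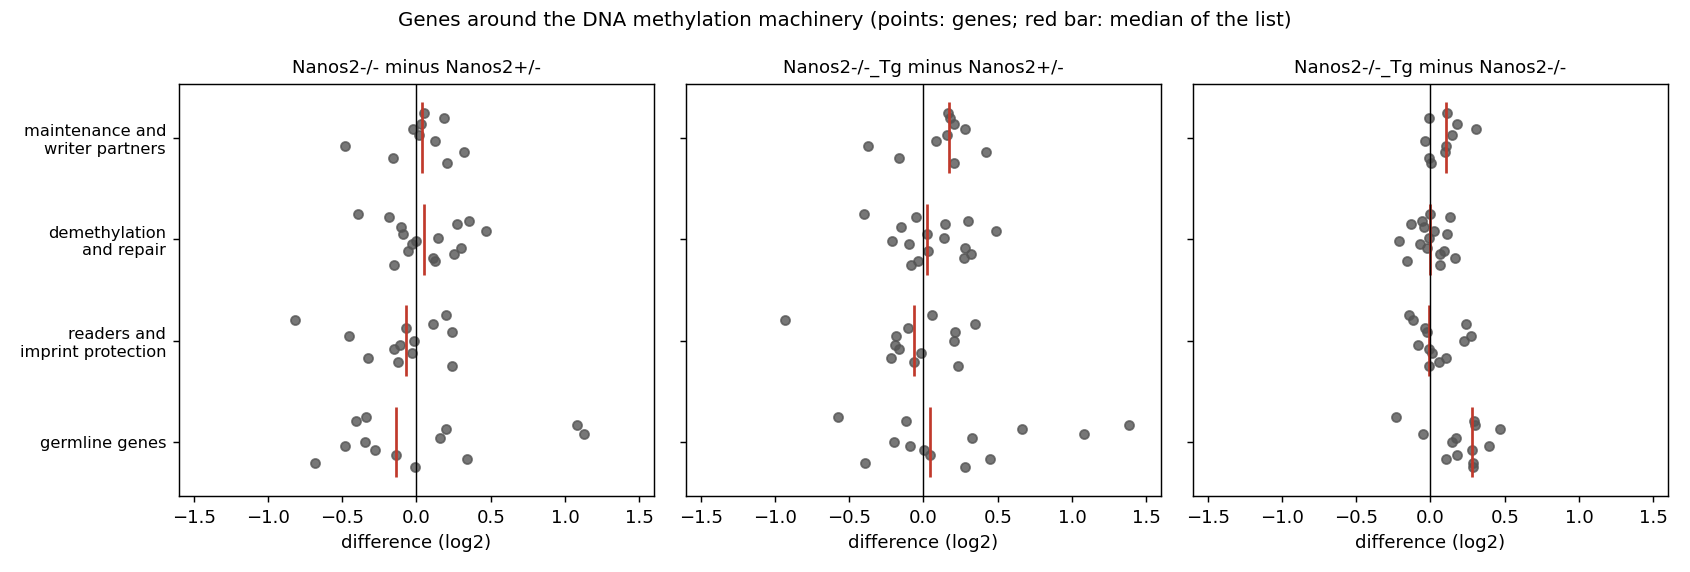
Difference between genotypes in log2 units (horizontal axes) for the genes of 4 lists around the DNA methylation machinery (rows), 1 point a gene and a red bar for the median of the list. Most genes lie within 0.5 of 0, and in the comparisons with Nanos2+/- *Sycp1* and *Taf7l* stand to the right in the germline list and *Zbtb38* to the left among the readers.

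The direction of these list medians against Nanos2+/- depended on single arrays. Without Nanos2+/- replicate 1 and then without replicate 2, the medians in Nanos2-/- were -0.13 and 0.17 for the partners, -0.036 and 0.21 for demethylation and repair, -0.21 and 0.15 for the readers, and -0.19 and 0.0090 for the germline genes. In Nanos2-/-_Tg they were -0.027 and 0.33, -0.12 and 0.17, -0.14 and 0.17, and -0.012 and 0.10 in the same order. The germline median between Nanos2-/-_Tg and Nanos2-/- was 0.055 without Nanos2-/- replicate 1.

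Other cell types of the gonad were read through their markers, and no marker was called in any comparison. In the order Nanos2-/- and Nanos2-/-_Tg from Nanos2+/-, the median changes were -0.059 and -0.013 for 6 Sertoli markers, -0.15 and -0.26 for 4 Leydig markers, -0.20 and 0.21 for 5 blood markers, 0.037 and 0.23 for 4 endothelial markers, 0.19 and 0.077 for 3 macrophage markers, and -0.0053 and -0.23 for 4 markers of the mesonephros. With an array left out the direction of the Nanos2-/- median turned for each of these lists but the Leydig markers. The blood median went from -0.72 without Nanos2+/- replicate 1 to 0.64 without its replicate 2 in Nanos2-/-, and from -0.28 to 0.67 likewise in Nanos2-/-_Tg. The Sertoli median went from -0.22 to 0.11 and from -0.18 to 0.16 in the same way. The tested markers of the mesonephros, the neighbouring tissue, were low, with a summed log2 signal of 7.49 to 7.96 on all arrays, and its marker *Pax2* was not well above background. Markers of these lists at an unadjusted limma *p* below 0.05 included *Pax8*, *Pecam1* and *Cldn11*. *Pax8* of the mesonephros was at -0.82 in Nanos2-/- against Nanos2+/- and 0.49 in Nanos2-/-_Tg against Nanos2-/-. It was well above background on only 1 of the 2 Nanos2-/- arrays. *Pecam1* of the endothelial list was at 0.66 in Nanos2-/- against Nanos2+/-, where *Cdh5* was at -0.20, *Kdr* at -0.15 and *Tek* at 0.23. *Cldn11* of the Sertoli list was at 0.59 in Nanos2-/-_Tg against Nanos2+/-. In Nanos2-/-_Tg against Nanos2-/- the median of the blood markers was 0.50, between 0.23 and 0.60 with an array left out, and *Alas2* and *Hba-a1* reached that *p*. The part of these cell types in the values of the methylation genes was not tested.

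The genes most like the members over the 6 arrays were taken by Pearson's *r* among 2485 genes well above background on every array with a standard deviation of at least 0.3. For *Dnmt3l* these were *Cep85* (*r* = 0.998), *Lck* (*r* = 0.997) and *Kcna1* (*r* = 0.996). *Cep85* gave 10.32 and 9.68 in Nanos2+/- against 9.40 to 9.59 on the other arrays, and *Kcna1* gave 8.69 and 7.39 against 6.91 to 7.31, so that their likeness rests mainly on the same high control array. The gene most like *Dnmt3b* was *Spaca1* (*r* = 0.995), and those most like *Uhrf1*, *Tet2* and *Dnmt1* were *Pfn1* (*r* = 0.981), *Rps15* (*r* = 0.984) and *Prpf19* (*r* = 0.941). With 6 arrays and so many genes, such values describe these arrays only.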

How the data were processed

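The microarray data comprised 6 arrays, 2 for each genotype, hybridized with cRNA from 200 ng of total RNA, and genotypes and replicate numbers were taken from the sample labels. The deposited scanner files hold the spot intensity that the authors obtained with Feature Extraction (version 9.5 per the labels, 9.5.3.1 per the file headers), after background subtraction by that software. The deposited series matrix repeats that intensity, within 0.497%, on a linear scale. In the authors' methods, low values were raised to 5, arrays were scaled by their 50th percentile and genes were centred. The centring does not alter differences between genotypes and was left out.

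Control and outlier spots were removed, and no spot was saturated. Signals were scaled to a common median (factors 0.878 to 1.28), raised to at least 5, put on log2 and averaged by probe name, giving 41174 probes, of which 23374 were matched to a RefSeq symbol through the accession of the probe's design. Tested were 26711 probes for 12982 genes that, in 1 genotype or more, both arrays showed well above background. limma 3.58.1 (R 4.3.3, data.table version 1.17.8) was fitted with lmFit and eBayes over all 6 arrays, with Benjamini-Hochberg adjustment over all probes tested. The number of arrays limits the precision. The script was tested on simulated data. Promoter windows were counted in Python 3.11.15 and figures drawn with pandas 2.3.3 and matplotlib 3.10.9.

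A gene with several probes is represented in counts by its probe with the highest mean. Named from the lists around the methylation machinery are genes at an unadjusted *p* below 0.05 and those with the largest change in each direction, with *Tdg* added after its values were seen. The members and lists were chosen with earlier results of these data known. *Usp7*, *Tet3*, *Zbtb4*, *Ctcf*, *Ctcfl*, *Rpl10l*, *Tdrkh*, *Insl3*, *Cd68* and *Mki67* had no matched probe. Some results are not reported here.

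The alternatives were the 75th percentile or quantile normalization, normexp background correction (offset 50, on the median signal and median background, as the files used here hold no mean signal), the floor of 5 before the scaling or a floor of 20, other filters on dim probes, outlier spots kept, the values of the series matrix, a block for the replicate number, an intensity trend, only the 4 arrays compared, the methods' t-test with its 2-fold limit, each other probe of a gene, and each array left out. The *Dnmt3a* probe A_52_P76146 was followed through them as a result of its own after its values had been seen.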

Additional observations from a re-analysis of the deposited data

How the results depend on the processing

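No member was called under any alternative run. Of 453 recomputed differences of the members, 28 changed sign, and those of *Dnmt3l* and *Dnmt3b* from Nanos2+/- were not among them. With an array left out these could not turn, as their arrays did not overlap with Nanos2+/-. With normexp correction, which moved the median of all probes by 0.60 in Nanos2-/- and 0.54 in Nanos2-/-_Tg against Nanos2+/-, the differences became 0.77 and 0.78 for *Dnmt1*, 0.61 and 0.92 for *Dnmt3a*, 0.95 and 0.95 for *Uhrf1*, 0.092 and 0.076 for the *Dnmt3a* probe A_52_P76146, -1.18 and -0.91 for *Dnmt3l*, and 1.40 and 1.54 for *Dnmt3b*. *Tet2* was at -0.0020 between Nanos2-/-_Tg and Nanos2-/-. Quantile normalization gave 0.046 for *Uhrf1* in Nanos2-/-. With other probes *Dnmt3a* was at 0.038 (A_52_P30497) in Nanos2-/-, and at -0.92 and -0.016 (A_52_P76146) in Nanos2-/-_Tg against Nanos2+/- and Nanos2-/-. The cause of these reversals was not tested beyond the shift of the median.

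With each array left out, the differences of Nanos2-/- from Nanos2+/- lay between -0.32 and 0.20 for *Uhrf1* and between -0.30 and 0.029 for *Tet2*. Those of Nanos2-/-_Tg from Nanos2+/- lay between -0.26 and 0.041 for *Dnmt1*, -0.24 and 0.33 for *Dnmt3a*, -0.25 and 0.27 for *Uhrf1*, and -0.19 and 0.14 for *Tet2*. Those of Nanos2-/-_Tg from Nanos2-/- lay between -0.094 and 0.21 for *Dnmt1*, -0.21 and 0.53 for *Dnmt3b*, -0.033 and 0.17 for *Uhrf1*, and -0.12 and 0.083 for A_52_P76146.

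The counts of called probes over the whole array, 18, 28 and 5 for Nanos2-/- and Nanos2-/-_Tg against Nanos2+/- and Nanos2-/-_Tg against Nanos2-/-, depended strongly on the settings. They were 13 to 47, 21 to 85 and 1 to 29 with an array left out. The first 2 counts were 5 and 10 with the 75th percentile and likewise 5 and 10 with quantile normalization. With limma, normexp and a floor of 20 each gave 0, 0 and 0, where 436, 446 and 12 probes and 298, 408 and 44 probes had an unadjusted *p* below 0.05 with a 2-fold change. The 3 counts were 1, 5 and 1 for probes well above background on all 6 arrays, 3, 5 and 2 for at least 1 array, 2, 4 and 0 without a filter (146 unadjusted in the last), 5, 18 and 3 with an intensity trend, and 38, 85 and 1 with only the 4 arrays compared. The methods' t-test, unadjusted, listed 153, 234 and 40 probes, none of them a member's, and 0, 0 and 0 after adjustment.

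With the replicate number as a block (replicate block), 145 probes were called for Nanos2-/-_Tg against Nanos2+/-, and the block changed no call of a member. The differences between replicates correlated at 0.355, 0.313 and 0.259 between genotypes over probes, a hint that the numbers share something, which the labels do not state. The slide as a block was not run, since the slide coincides with Nanos2+/-.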
